A study of Arvicanthis niloticus with 7 samples.

Results

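The genes described here encode the proteins of the mitochondrial ribosome. They were chosen by name, as every probe of the array whose gene symbol begins with *Mrpl* or *Mrps* followed by a digit, which gave 106 of the 25697 probes and 75 of the 16110 gene symbols. RNA labelled as liver came from young male Nile rats (NRs, *Arvicanthis niloticus*), grass rats that develop type 2 diabetes mellitus on carbohydrate-rich food. All animals started at 3 weeks of age and were fed for 4 weeks on food in which carbohydrate supplied 70% of the energy. The 4 control arrays came from NRs given this diet alone, and the 3 palm fruit juice (PFJ) arrays from NRs whose diet also held the juice, a phenolic extract of oil palm fruit, at 5.4 g per kg, expressed as gallic acid equivalents. The labels name no animal behind an array, so that the errors given below measure the spread between these samples.

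Mitochondria keep a small genome of their own, and its messenger RNAs, all for subunits of the respiratory chain and ATP synthase, are translated inside the organelle by a dedicated ribosome. Every protein of that ribosome is encoded in the nucleus, made in the cytosol and imported. The large subunit (*Mrpl* genes) forms the peptide bond and the small subunit (*Mrps* genes) reads the messenger. Some of the proteins have relatives in the bacterial ribosome, whereas others were added in the line that led to mitochondria. In liver, a tissue dense in mitochondria, the respiratory chain depends on this machinery. By function the 75 symbols comprise 49 genes of the large subunit and 25 of the small subunit, with *Mrps18a* and *Mrps30* counted in the large subunit, where their proteins sit. The remaining symbol, *Mrps36*, names a protein now assigned to the 2-oxoglutarate dehydrogenase complex. In the RefSeq annotation of the NR genome 74 of the 75 symbols have a gene of the same name, the exception being *Mrps36*.

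The probes were designed on mouse transcripts, and a mouse probe that differs from the NR transcript can give a weak signal or none. A probe was called detected where its detection p, the share of negative control beads brighter than it, was under 0.01. Detection of the members was close to all or none. Of the 106 probes, 35 (33.0%) were detected on all 7 arrays and 63 (59.4%) on 0, with 8 between. Over all probes of the array 14.6% were detected on all 7 and 75.2% on 0. The 63 undetected probes lay at 0.839 to 1.18 times the background level of their arrays, so they carry no information on the level of their genes. Control arrays detected 38, 38, 41 and 38 member probes (replicates 1 to 4), and PFJ arrays 39, 37 and 36 (replicates 1 to 3). The ranges of the diet groups overlapped. Over the whole array 4689 to 5137 probes were detected.

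A probe was kept for testing when it was detected on at least 3 arrays, and each gene was represented by its brightest kept probe. This left 34 of the 75 genes, which is 23 of 49 for the large subunit and 11 of 25 for the small subunit. Among proteins with bacterial relatives 20 of 45 were tested, and among the mitochondria-specific ones 14 of 29. All probes of 38 of the 41 untested genes were undetected on every array. None of the 41 genes could be assessed. In the large subunit these were *Mrpl9*, *Mrpl10*, *Mrpl11*, *Mrpl12*, *Mrpl15*, *Mrpl17*, *Mrpl18*, *Mrpl19*, *Mrpl20*, *Mrpl21*, *Mrpl27*, *Mrpl28*, *Mrpl32*, *Mrpl35*, *Mrpl38*, *Mrpl39*, *Mrpl45*, *Mrpl48*, *Mrpl50*, *Mrpl51*, *Mrpl52*, *Mrpl55*, *Mrpl57*, *Mrpl58*, *Mrps18a* and *Mrps30*. Those of the small subunit were *Mrps2*, *Mrps6*, *Mrps7*, *Mrps9*, *Mrps10*, *Mrps12*, *Mrps14*, *Mrps15*, *Mrps17*, *Mrps18b*, *Mrps23*, *Mrps24*, *Mrps27* and *Mrps34*, and *Mrps36* was the last. They include *Mrpl12*, whose product forms part of the stalk that recruits translation factors, *Mrps12*, which helps to decode the messenger, and *Mrps34*, which stabilises the small subunit. Probes of the same gene often differed in detection, for reasons that were not tested, since no probe was compared with an NR sequence. Of 22 genes with more than 1 probe, 11 had a probe detected on all 7 arrays and another detected on 0. *Mrps31*, a mitochondria-specific protein of the small subunit, had 1 probe at a mean of 35.7 times background and 3 undetected probes at 1.01 to 1.15 times background. *Mrpl37*, of the large subunit, had 1 probe at 39.7 times and 1 at 1.10 times background. *Mrpl3*, *Mrpl33*, *Mrpl43*, *Mrpl13*, *Mrpl1*, *Mrpl49*, *Mrps5*, *Mrps25* and *Mrps26* were split in the same manner. The brightness of 1 member against another is therefore no measure of their relative RNA levels, and only differences between arrays are read below.

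No member was detected on every array of one diet group and on none of the other. Among the 8 probes detected on some arrays, 2 were detected on control replicates 3 and 4 alone. *Mrpl58*, which encodes a peptidyl-tRNA hydrolase that rescues stalled mitochondrial ribosomes, had signals of 161, 154, 322 and 417 on control replicates 1 to 4 and of 168, 147 and 158 on the PFJ arrays. It was detected on control replicates 3 and 4 and on no other array. A second probe of *Mrpl49*, a mitochondria-specific protein of the large subunit, did the same, with signals of 192, 176, 384 and 299 in controls and 141, 183 and 186 with PFJ. Neither passed the filter of 3 arrays. *Mrps35*, a small subunit protein, missed detection on PFJ replicate 3 alone, and a second probe of *Mrpl1* on control replicate 4 alone. The remaining 4, of *Mrpl10*, *Mrpl47*, *Mrpl49* and *Mrpl55*, were seen on 1 or 2 arrays each. That of *Mrpl49* was also brightest on control replicates 3 and 4, with signals of 234 and 197 against 138 to 169 elsewhere. It was detected on control replicate 3 only.

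Control replicates 3 and 4 stand apart from the remaining arrays, which bears on each comparison of the diet groups below. Of 18 genes on the array for proteins secreted by hepatocytes, among them *Trf* (transferrin), *Ahsg*, *Vtn* and *Hpx*, 10 were tested. Their median log2 level was 8.13 on control replicate 3 and 8.39 on control replicate 4, where the other 5 arrays had 15.83 to 16.001. In 9 of the 10 genes both arrays were below every other, the exception being *Ttr*. Of 16 kidney tubule genes 3 were tested. The median of these, *Aqp1*, *Miox* and *Slc12a3*, was 14.31 and 14.23 there, and elsewhere 10.98 to 11.32. The 2 tested genes of blood and immune cells, *Alas2* and *Lyz2*, had a median of 9.20 and 10.01 there and 11.57 to 11.87 elsewhere. *Alas2* was lowest on these 2 arrays. *Lyz2* was lowest on control replicate 3 (8.29), but on control replicate 4 (9.46) it lay within its other values. For *Col1a1* and *Kdr*, the 2 tested genes of stellate cells and endothelium, the median was 7.06 and 7.62 against 5.75 to 7.10. *Col1a1* was at its highest on these arrays and *Kdr* at its lowest on control replicate 3. The labels of these arrays read liver like those of the others. Yet hepatocyte genes were low on them, and the 3 tested kidney tubule genes were high. Whether the label names the tissue of these 2 arrays was not tested. Their part in the results below was not tested beyond leaving these arrays out. In bulk RNA, fewer cells of a type and less RNA per cell cannot be told apart. The counts and the changes of the members described one by one are therefore also given without control replicates 3 and 4, a choice made with these differences known.

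Unlike the medians of these lists, the median of the members was nearly the same on every array. On the log2 scale after background correction and quantile normalisation, their median was 10.94, 10.996, 10.83 and 11.07 on control replicates 1 to 4 and 10.95, 10.99 and 10.88 on PFJ replicates 1 to 3. The groups overlapped, and control replicates 3 and 4 held the lowest and the highest of the 7 medians. The median of all genes tested was also nearly constant, at 8.92 to 9.05, so a flat median is not particular to the members. The large subunit had medians of 10.98 to 11.19 and the small subunit of 10.70 to 11.05. The mitochondria-specific members had medians of 11.56 and 11.52 on control replicates 3 and 4 and of 11.19 to 11.27 on the other arrays, while those with bacterial relatives ranged from 10.32 to 10.76 over all 7. A single member spanned a median range of 0.80 over the 7 arrays, against 1.20 for all 3734 genes tested. The members were brighter than most genes, with a median level of 11.002 against 8.96, and part of such a difference in range can come with brightness, which was not tested.

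**Figure D1:**
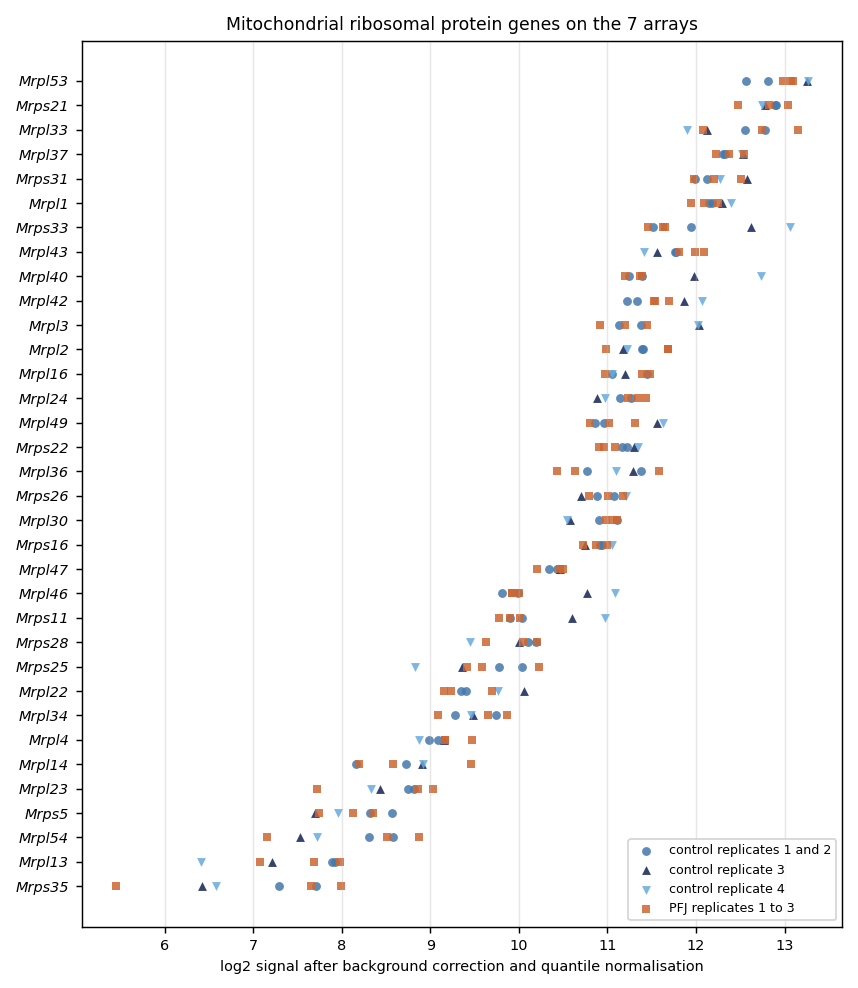
Normalised log2 signal (horizontal axis) of the 34 tested genes (rows, ordered by mean signal), with a point for each of the 7 arrays. Most genes keep the 7 arrays within about 1 unit, *Mrps33*, *Mrpl40*, *Mrpl46* and *Mrps11* show control replicates 3 and 4 to the right of the others, and *Mrps35* has the widest range (2.53).

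Whether PFJ altered the expression of the mitochondrial ribosome was examined with the linear model of limma over all 3734 tested genes. None of the 34 members was higher and none was lower at an adjusted p under 0.05, where 0 genes passed on the whole array. At an unadjusted p under 0.05, 0 members were called, against 4.77% of all tested genes, 2.17% in the higher and 2.6% in the lower direction. The lowest p of a member was 0.106 and its adjusted p was 0.561 from limma. Positive log2 fold changes were found for 16 members and negative ones for 18, with a median of -0.02 beside 0.03 for all genes. The difference was smaller than 0.5 in size for 32 of 34 members (94.1%) and for 64.9% of all genes. The 95% intervals of 23 members lay wholly within 1 log2 unit of zero, that is within a change by a factor of 2. These intervals hold only for the brightest kept probe of each gene, and second kept probes are given below. For the other 11 members a change of that size cannot be set aside at this number of arrays, the widest interval being that of *Mrps35*, from -1.51 to 1.58.

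**Figure D2:**
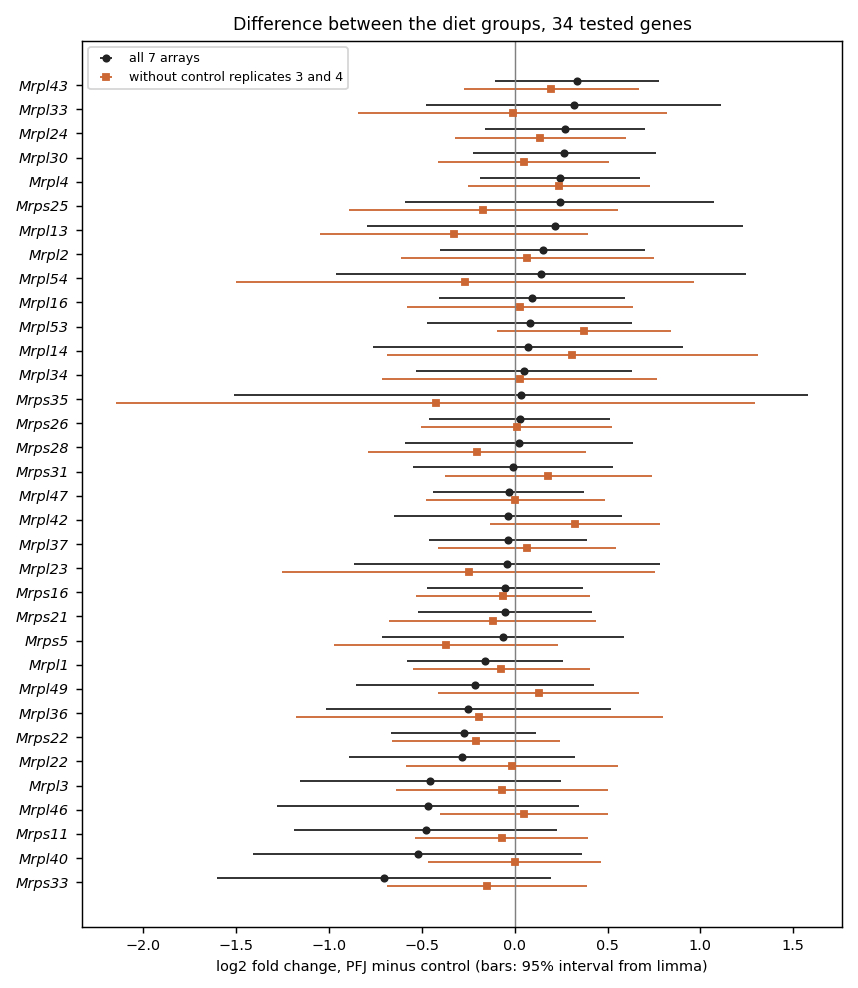
Log2 fold change, PFJ minus control (horizontal axis, zero line drawn), of each of the 34 tested genes with its 95% interval from limma, over all 7 arrays (black) and without control replicates 3 and 4 (orange). All intervals include zero in both fits, and *Mrps33* has the most negative value over 7 arrays (-0.70).

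The most negative value belonged to *Mrps33*, a mitochondria-specific protein of the small subunit that the study itself selected on these arrays. Its log2 values were 11.94, 11.51, 12.62 and 13.06 on control replicates 1 to 4 and 11.46, 11.63 and 11.65 on PFJ replicates 1 to 3. Control replicates 3 and 4 were the high samples, control replicate 2 lay within the range of the PFJ arrays, and control replicate 1 lay 0.29 above it. The control mean was 12.28 ± 0.69 (SD, n = 4) and the PFJ mean 11.58 ± 0.11 (SD, n = 3). Their difference was -0.70 on the log2 scale, with a standard error of 0.38, which is 1.63-fold lower after PFJ (limma, adjusted p = 0.561). Without control replicates 3 and 4 the value was -0.15 (standard error 0.22). With control replicate 2 left out it was -0.95 (unadjusted p = 0.0243, adjusted p = 0.330 from limma), where 13.3% of all genes tested in that fit passed the unadjusted threshold.

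*Mrps33* had a second kept probe, assigned to another transcript record of the gene. It read 7.70, 7.82, 8.06 and 8.19 on control replicates 1 to 4 and 7.55, 7.47 and 6.81 with PFJ. Every PFJ array lay below every control array, a pattern shown by 3.62% of all tested genes. When each kept probe was tested on its own, its log2 fold change was -0.66 (standard error 0.25, unadjusted p = 0.0348, adjusted p = 0.564 from limma), where 4.96% of all kept probes passed the unadjusted threshold. Without control replicates 3 and 4 it was -0.48 (standard error 0.28), a setting chosen after the data were seen. Both probes had control replicates 3 and 4 as the highest arrays.

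Another 4 members had log2 fold changes between -0.45 and -0.52, and in each of them control replicates 3 and 4 were the high samples. *Mrpl40*, of the large subunit, whose human gene lies in the region deleted in DiGeorge syndrome, was at 11.24, 11.40, 11.98 and 12.74 in controls and 11.19, 11.37 and 11.39 with PFJ. *Mrpl46*, a mitochondria-specific protein of the large subunit, was at 9.81, 9.99, 10.77 and 11.09 in controls and 9.92, 9.92 and 10.00 with PFJ. In both genes the PFJ arrays lay close to control replicates 1 and 2. *Mrps11*, whose bacterial relative sits on the platform of the small subunit, was at 9.89, 10.03, 10.60 and 10.98 in controls and 9.89, 9.78 and 10.01 with PFJ. *Mrpl3*, related to a bacterial protein that reaches towards the site of peptide bond formation, was at 11.13, 11.38, 12.03 and 12.02 in controls and 10.91, 11.20 and 11.45 with PFJ. Their log2 fold changes were -0.52 (*Mrpl40*), -0.47 (*Mrpl46*), -0.48 (*Mrps11*) and -0.45 (*Mrpl3*), with standard errors of 0.38, 0.34, 0.30 and 0.30 and adjusted p-values of 0.570, 0.573, 0.561 and 0.561 from limma. Without control replicates 3 and 4 these became 0.00 (0.00129), 0.05, -0.07 and -0.07.

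On the positive side the values were smaller. *Mrpl43*, a mitochondria-specific protein of the large subunit, was at 11.76, 11.77, 11.56 and 11.42 in controls and 11.99, 11.81 and 12.09 with PFJ. All PFJ arrays lay above all control arrays, by 0.34 log2 units on average (1.26-fold, standard error 0.19, limma adjusted p = 0.561). Control replicates 3 and 4 were its lowest arrays, and without them the difference was 0.20 (standard error 0.19). *Mrpl4*, whose bacterial relative lines the exit tunnel for the new peptide, was at 8.99, 9.08, 9.15 and 8.87 in controls and 9.17, 9.16 and 9.47 with PFJ. The PFJ arrays were again the higher ones, by a margin over control replicate 3 that was small beside the spread within the groups. For *Mrpl4* the mean difference came to 0.24, with a standard error of 0.18 (limma, adjusted p = 0.575), and without control replicates 3 and 4 it was again 0.24. In all, 2 of the 34 members had every PFJ array above every control array and 1 had them all below, where 3.45% and 3.62% of all tested genes did so. The 1 below was *Mrps22*, a small subunit protein in which variants cause a combined respiratory chain deficiency in humans, with 11.21, 11.17, 11.30 and 11.34 in controls and 10.90, 11.08 and 10.96 with PFJ. The mean difference was -0.27 with a standard error of 0.17 (limma, adjusted p = 0.561), and -0.21 without control replicates 3 and 4. *Mrps22* was singled out for this order after its values were seen.

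The positive end held 3 more members. *Mrpl33*, a small protein with a bacterial relative, was at 12.78, 12.55, 12.12 and 11.89 in controls and 12.75, 13.15 and 12.07 with PFJ, and the groups overlapped widely. *Mrpl24*, whose relative in *Escherichia coli* starts the assembly of the large subunit, was at 11.14, 11.26, 10.88 and 10.98 in controls and 11.34, 11.44 and 11.23 with PFJ. *Mrpl30*, also of the large subunit, was at 10.90, 11.11, 10.57 and 10.55 in controls and 10.98, 11.11 and 11.07 with PFJ. Control replicates 3 and 4 were the low samples in *Mrpl24* and *Mrpl30*. The log2 fold changes were 0.32 (*Mrpl33*), 0.27 (*Mrpl24*) and 0.27 (*Mrpl30*), with standard errors of 0.34, 0.18 and 0.21 and adjusted p-values of 0.654, 0.561 and 0.582 from limma. Leaving out control replicates 3 and 4 gave -0.01 for *Mrpl33*, 0.14 for *Mrpl24* and 0.05 for *Mrpl30*.

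With control replicates 3 and 4 left out of the whole fit, 0 of the 34 members passed an adjusted p under 0.05 and 0 an unadjusted p under 0.05 in limma, against 0% and 2.79% of the 3543 genes then tested (1.35% higher and 1.44% lower). The median log2 fold change was -0.005, with 17 positive and 17 negative values, and the largest in size were -0.42 for *Mrps35* and 0.37 for *Mrpl53*. All 34 differences were then smaller than 0.5, as were those of 90.1% of all genes, and 28 of the 34 intervals lay within 1 log2 unit of zero. The sign was the same in both fits for 21 members and turned for 13. Every PFJ array lay above control replicates 1 and 2 in 4 members (*Mrpl4*, *Mrpl42*, *Mrpl43* and *Mrpl53*) and below both in 1 (*Mrps22*), where 7.23% and 8.24% of all genes did so. *Mrpl53*, a mitochondria-specific protein of the large subunit, had the lowest p in this fit (unadjusted p = 0.0994, adjusted p = 0.999 from limma). It was at 12.81 and 12.56 on control replicates 1 and 2, 13.25 and 13.26 on control replicates 3 and 4, and 13.08, 12.98 and 13.10 with PFJ.

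The brightest probes after that of *Mrpl53* were those of *Mrps21*, *Mrpl33*, *Mrpl37* and *Mrps31*, and 3 of these 4 varied little. *Mrps21*, with a bacterial relative in the small subunit, had a control mean of 12.83 ± 0.08 (SD, n = 4) and a PFJ mean of 12.78 ± 0.28 (SD, n = 3). For *Mrpl37* these means were 12.42 ± 0.12 (SD, n = 4) and 12.38 ± 0.16 (SD, n = 3), and for *Mrps31* 12.24 ± 0.25 (SD, n = 4) and 12.23 ± 0.26 (SD, n = 3). At the dim end the spread was wider. *Mrps35* ranged from 6.42 to 7.71 in controls and was at 7.65, 7.99 and 5.46 with PFJ, the last being the array on which it was not detected. *Mrpl13*, related to a bacterial protein of the large subunit, spanned 6.42 to 7.92 on control arrays and 7.08 to 7.98 on PFJ arrays. *Mrpl54*, a mitochondria-specific protein, spanned 7.53 to 8.58 and 7.16 to 8.87 in the same order. Their log2 fold changes were 0.03, 0.22 and 0.14, with standard errors of 0.65, 0.43 and 0.47. Without control replicates 3 and 4 all 3 turned negative, to -0.42 (*Mrps35*), -0.33 (*Mrpl13*) and -0.27 (*Mrpl54*), with standard errors of 0.71, 0.30 and 0.51. For *Mrps21*, *Mrpl37* and *Mrps31* the differences were -0.05, -0.04 and -0.01 on 7 arrays and -0.12, 0.06 and 0.18 without these 2. The 14 tested members not described one by one, *Mrpl2*, *Mrpl14*, *Mrpl16*, *Mrpl22*, *Mrpl23*, *Mrpl34*, *Mrpl36*, *Mrpl42*, *Mrpl47*, *Mrpl49*, *Mrps5*, *Mrps16*, *Mrps26* and *Mrps28*, had log2 fold changes from -0.28 (*Mrpl22*) to 0.15 (*Mrpl2*), and without control replicates 3 and 4 from -0.37 (*Mrps5*) to 0.32 (*Mrpl42*).

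How the members sat on control replicates 3 and 4 is given as a description, since these 2 arrays were marked for their values. Both arrays lay above every other array for 11 of the 34 members and below every other array for 4, which makes 15 of 34. Of all tested genes 26.8% lay above, 30.2% below and 57% on either side. Among mitochondria-specific members 7 of 14 lay above and 2 below, and among those with bacterial relatives 4 of 20 lay above and 2 below. The widest gaps upward were those of *Mrpl46* (0.77 between the lower of the 2 arrays and the highest of the other 5), *Mrps33* (0.68), *Mrpl40* (0.59), *Mrpl3* (0.57) and *Mrps11* (0.57). The 4 downward gaps were those of *Mrpl30* (0.33), *Mrpl43* (0.20), *Mrpl24* (0.17) and *Mrps25* (0.06). *Mrps25*, a mitochondria-specific protein of the small subunit, was at 9.77, 10.04, 9.35 and 8.83 in controls and 9.59, 10.22 and 9.41 with PFJ, a log2 fold change of 0.24 that turned to -0.17 without control replicates 3 and 4. Over the 34 members, which are not independent replicates, the correlation between these 2 arrays was 0.986, and that of either with another array 0.913 to 0.973. Among the other 5 arrays it was 0.953 to 0.986. Over all tested genes the correlation of either of the 2 arrays with another array was 0.759 to 0.778, and among the other 5 arrays 0.955 to 0.979.

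**Figure D3:**
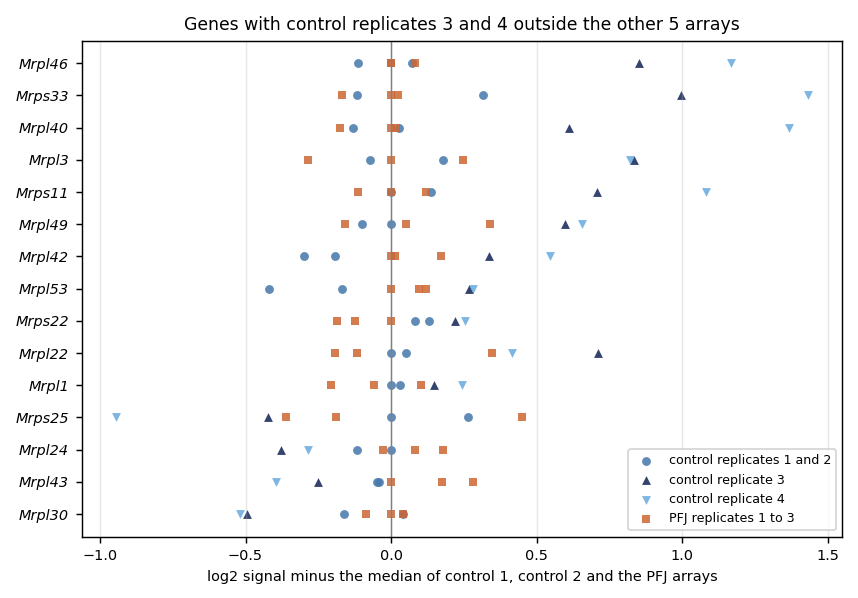
The 15 genes for which control replicates 3 and 4 both lay outside the range of the other 5 arrays, as log2 signal minus the median of those 5 (horizontal axis), 1 point per array. The upper 11 genes have both arrays on the high side and the lower 4 on the low side. Among the other 5 arrays, every PFJ array is above control replicates 1 and 2 for *Mrpl42*, *Mrpl43* and *Mrpl53* and below them for *Mrps22*.

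There were 3 members with 2 kept probes, and these did not always move together. For *Mrps11* the brighter probe had its highest values on control replicates 3 and 4, whereas the dimmer probe, at 8.26, 7.89, 7.52 and 7.12 in controls and 7.74, 7.56 and 7.85 with PFJ, had its lowest values there. The log2 fold change was -0.48 on the first and 0.02 on the second, and without these 2 arrays -0.07 and -0.37. For *Mrpl1*, related to the bacterial protein of the mobile stalk at the exit site, the brighter probe was at 12.18, 12.15, 12.29 and 12.39 in controls and 11.94, 12.25 and 12.09 with PFJ. Its dimmer probe was at 8.28, 7.24, 6.76 and 5.09 in controls, undetected on control replicate 4, and at 8.22, 7.74 and 7.67 with PFJ. The log2 fold changes were -0.16 and 1.03 (standard errors 0.18 and 0.69), and without these 2 arrays -0.07 and 0.11. In both genes the 2 probes carry the same transcript record, so the high position of control replicates 3 and 4 depended on the probe.

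**Figure D4:**
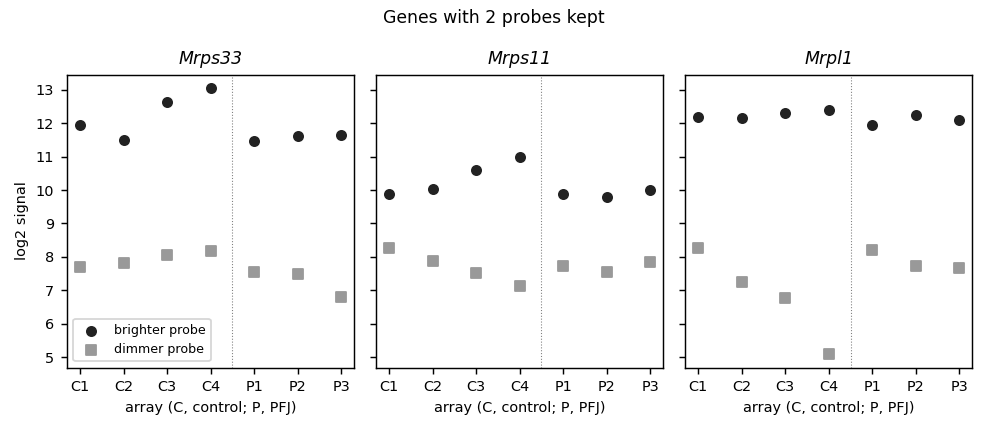
Log2 signal (vertical axis) of the brighter and the dimmer kept probe of *Mrps33*, *Mrps11* and *Mrpl1* on the 7 arrays (C1 to C4, control replicates; P1 to P3, PFJ replicates; the dotted line separates the groups). For *Mrps33* both probes are highest on C3 and C4, while for *Mrps11* and *Mrpl1* the brighter probe is highest and the dimmer probe lowest there.

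Other genes of mitochondrial translation were examined as lists chosen by function. Of the 7 proteins of the mitochondrial ribosome that carry other symbols, 6 were on the array and 1 was tested, *Dap3*, a GTP-binding protein of the small subunit. It was at 9.85, 9.44, 10.30 and 10.00 in controls and 9.95, 10.02 and 10.04 with PFJ (log2 fold change 0.11, adjusted p = 0.838 from limma), and its change was 0.37 without control replicates 3 and 4. Among translation factors and partners 4 of 15 genes on the array were tested and 0 passed at an unadjusted p under 0.05, with a median log2 fold change of 0.03, or 0.12 without control replicates 3 and 4. They were *Gfm1*, the elongation factor that moves the ribosome along the messenger (0.16), *Gatb* (0.26) and *Gatc* (-0.16), both needed to charge the glutamine tRNA, and *Trmu* (-0.10), which modifies tRNAs. Of the assembly factors of the ribosome 6 of 23 were tested, 2 with positive and 4 with negative values and a median of -0.15, which became 0.01 without control replicates 3 and 4. In 3 of the 6 genes these arrays lay above every other array, against 26.8% of all tested genes. Of the 6 genes 1 passed at an unadjusted p under 0.05 from limma in the lower direction, and 0 at an adjusted p. Of all tested genes 2.6% were lower at the unadjusted threshold. This was *Noa1*, a GTPase that takes part in the assembly of the small subunit, at 6.72, 8.20, 8.37 and 8.94 in controls and 6.87, 6.74 and 6.47 with PFJ. The mean difference was -1.37 with a standard error of 0.50 (limma, unadjusted p = 0.0298, adjusted p = 0.561), with control replicate 1 in the range of the PFJ arrays and control replicates 3 and 4 the highest. Without these 2 arrays it was -0.76 with a standard error of 0.43. *Dhx30*, an RNA helicase of the assembly path, was at 12.11, 11.88, 12.71 and 12.71 in controls and 11.93, 11.61 and 12.14 with PFJ, the high samples again being control replicates 3 and 4. Its log2 fold change was -0.46, and -0.10 without them.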

How the data were processed

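Illumina MouseRef-8 version 2 BeadChips were hybridised with labelled cRNA from 4 control and 3 PFJ samples. The authors extracted the data with BeadStudio and GenomeStudio (2011.1), removed outlier arrays by clustering and deposited, per probe and array, a mean signal intensity without normalisation and a detection p-value against negative controls. A second table holds the authors' rank invariant normalised intensity. Gene symbols came from the platform annotation (23141 probes with 1 symbol, 2556 with none). The signals were background corrected from the detection p-values and quantile normalised (neqc of limma 3.58.1 in R 4.3.3, offset 16, log2). Probes with a detection p under 0.01 on at least 3 arrays were kept, with 1 probe per symbol (the highest mean), which gave 3734 genes. Groups were compared with lmFit and eBayes, which take the place of the Illumina Custom error model of the methods, with Benjamini-Hochberg adjustment over all genes. The fit was tested on simulated data whose spread was taken from the PFJ arrays. Those data did not contain the departure of control replicates 3 and 4, so the test cannot show how the fit handles it. The number of arrays limits the precision of all values.

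Alternatives were the scaling, the authors' normalised values (floored at 10), no background correction, other filters, single probes, array weights, each array left out, control replicates 3 and 4 left out, and the replicate number as a block. Deviations of same-numbered arrays were weakly correlated (r = 0.108, 0.248 and 0.138 for replicates 1 to 3). No value for arrays of different number is given beside these. Any pairing by number comes from the data alone, since the labels do not say what the numbers share. Members and lists were chosen with earlier results of these data known. Named genes were, among tested members, those with an unadjusted p under 0.05, the 5 largest changes in each direction, the 5 brightest and 3 dimmest probes, up to 5 in each direction with control replicates 3 and 4 farthest outside the other arrays, those detected in 1 diet group only, those with probes split in detection, and *Mrps33*.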

Additional observations from a re-analysis of the deposited data

Results flagged for a closer look

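These 2 values were marked because 1 control array lay far from the other 3, measured as its gap to the nearest of them over the range of the group. They came from 50 sets of control values examined, of which chance marks about 1 in 20. Control replicate 3 detected 41 member probes, while the other control arrays detected 38 each. Over the whole array it also detected the most probes, 5137 against 4866 to 4955 on the other control arrays. The median log2 level of the 4 tested mitochondrial translation factors reached 8.75 in control replicate 3, where the remaining controls had 8.57 to 8.60 and the PFJ arrays 8.78 to 8.89.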

How the results depend on the processing

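In none of the 16 alternatives did a member pass an adjusted p under 0.05 in limma. At an unadjusted p under 0.05, 1 member was higher (*Mrpl43*) and 1 lower (*Mrps22*) with no filter on detection, where 75 members entered and 4.97% of all genes were called. With every kept probe tested, 1 was lower (*Mrps33*), against 4.96% of all probes. With array weights, whose estimation stopped before it converged, 2 were lower (*Mrps33* and *Mrpl3*), where 23.4% of all genes were called. With 1 array left out, 0 to 1 members were lower, the 1 being *Mrps33* without control replicate 2, where 13.3% of all genes were called. The median log2 fold change of the members ran from -0.08998 without PFJ replicate 2 to 0.08112 without PFJ replicate 3. With control replicates 3 and 4 left out, 13 of the 34 members changed sign, among the 10 genes with the largest changes *Mrpl33*, *Mrpl40* and *Mrpl46*, to -0.0105, 0.00129 and 0.0521, and, in a setting chosen after seeing the data, so did the second probe of *Mrps11*, to -0.366. The cause of these changes was not tested. In the fit with the replicate number as a block, over replicates 1 to 3, the median was -0.01242 and no call changed. Of 160 values of the 10 genes with the largest changes, 157 kept their direction and stayed on the same side of the adjusted threshold. Detection at a p under 0.05 gave 36 member probes on all 7 arrays in place of 35. Undetected probes, 63 of 106, limit what can be said of the 41 untested genes.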

Other observations

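Genes that act upstream of the ribosome in mitochondria were also measured. Of 16 mitochondrial aminoacyl-tRNA synthetase genes on the array, which charge tRNAs with their amino acids, 4 were tested and 0 passed at an unadjusted p under 0.05 from limma. All 4 log2 fold changes were negative, with a median of -0.16, though those of *Gars* (-0.002) and *Sars2* (-0.03) were close to zero. On control replicates 3 and 4 the 4 genes had a median of 8.70 and 8.62, against 7.66 to 8.02 on the other arrays, and without these arrays the median change of the 2 genes still tested was -0.03. *Rars2*, the arginine enzyme, was at 9.37, 9.12, 10.19 and 10.20 in controls and 8.94, 9.48 and 9.39 with PFJ.

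Among genes that copy, transcribe and process mitochondrial DNA and its RNA, 10 of 21 on the array were tested, 7 with positive and 3 with negative log2 fold changes and a median of 0.45. At an unadjusted p under 0.05 from limma 2 were higher and 0 lower, where 2.17% and 2.6% of all tested genes were, and 0 passed at an adjusted p. *Hsd17b10*, a subunit of the enzyme that trims mitochondrial tRNAs and also a dehydrogenase of isoleucine breakdown, was at 6.59, 6.58, 5.96 and 5.83 in controls and 6.99, 7.11 and 7.96 with PFJ (log2 fold change 1.11, standard error 0.33, adjusted p = 0.561). All PFJ arrays lay above all control arrays, and without control replicates 3 and 4 the change was 0.75 (standard error 0.33). *Twnk*, the helicase of mitochondrial DNA, was at 8.34, 8.16, 8.02 and 8.16 in controls and 8.41, 8.59 and 8.95 with PFJ (log2 fold change 0.48, standard error 0.20, adjusted p = 0.561). *Polrmt*, the RNA polymerase of mitochondria, differed by 0.42 on the log2 scale, with a standard error of 0.26. Without control replicates 3 and 4 *Twnk* was at 0.40 (standard error 0.23) and *Polrmt* at 0.16 (standard error 0.26). Both control replicates 3 and 4 lay below every other array for 4 of the 10 genes, against 30.2% of all tested genes. Without these arrays the median of the list was 0.09. The study selected *Hsd17b10* on these arrays, so its value gives the list no independent support.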
